A study of Rattus norvegicus with 4 samples.

Results

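The glypicans (Gpc1 to Gpc6) and syndecans (Sdc1 to Sdc4) are the core proteins that carry heparan sulfate on the cell surface. Of these 10 genes, 8 were measured among the 17245 named genes of the arrays: 4 of the 6 glypicans (Gpc2, Gpc3, Gpc4 and Gpc5) and all 4 syndecans. Gpc1 and Gpc6 were not analysed here. The members were chosen by gene family: a probe set was taken for a gene when its annotation named that gene alone, and the brightest was to be used. Each of the 8 genes had 1 such probe set, so brightness decided nothing. The family was singled out with earlier results of the same contrast known, so its values are a description to be read beside those of all genes.

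The arrays profiled total RNA of primary cortical neurons from Sprague Dawley rat embryos at embryonic day 18, collected 5 days after lentiviral infection. In 2 arrays the pLL3.7 lentivirus carried PHF6shRNA-2, a short hairpin RNA against the nuclear zinc-finger protein PHF6 (genotype label PHF6 knockdown), and in 2 arrays it carried a control shRNA (genotype label wild type). The same vector was thus used for all 4 arrays, and a single hairpin was used against PHF6, so loss of PHF6 and any other effect of that hairpin cannot be told apart. The arrays of a group are called biological duplicates, and nothing in the labels ties each to its own culture or animal. The p-values therefore measure only the spread between these arrays.

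Glypicans are held to the outer membrane by a lipid (GPI) anchor, whereas syndecans span the membrane and bind adaptor proteins through a short cytoplasmic tail. Both carry heparan sulfate chains, whose sulfation pattern sets which growth factors, morphogens and adhesion partners they bind. In the developing cortex the family is known for roles in growth factor signalling, axon growth and synapse formation.

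Phf6 itself could not be used to check the group labels. Its probe set read 34.4 and 31.3 intensity units in the PHF6 shRNA arrays and 32.8 and 34.3 in the control shRNA arrays. As a background level served the signal that 95% of 206 receptor genes for smell and pheromones stayed under on an array. It lay between 32.5 and 41.1 units, so Phf6 exceeded it on 1 of the 4 arrays. Every direction given here rests on the labels. No gene of the 17245 passed an adjusted p of 0.05 in limma's moderated test (0.0% of genes, smallest adjusted p = 0.23), while 1862 genes (10.8%) had an unadjusted p under 0.05. With 2 arrays against 2, an exact test of 1 gene cannot give a two-sided p under 0.05, so p-values come from limma's fit across all genes.

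Promoter sequence was at hand in RefSeq's GRCr8 table for 7 of the 10 genes (Gpc2, Gpc3, Gpc4, Gpc5, Sdc1, Sdc3 and Sdc4). Those of Gpc4, Gpc2 and Sdc3 are printed because these 3 genes had the differences whose 95% intervals left out 0, and that of Gpc3 because it is the glypican that neighbours Gpc4. Each runs 5′ to 3′ along the gene's strand and ends where the annotated gene begins. Capitals mark the GC box GGGCGG and the CCAAT box CCAAT, read on both strands, so that CCGCCC and ATTGG are their reverse forms.
Gpc4 (GRCr8 chrX:136676143-136676307, minus strand): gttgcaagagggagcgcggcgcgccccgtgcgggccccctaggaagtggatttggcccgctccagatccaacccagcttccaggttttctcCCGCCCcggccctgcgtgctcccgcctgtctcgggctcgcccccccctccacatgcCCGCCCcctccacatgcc
Gpc2 (GRCr8 chr12:22397823-22398072, minus strand): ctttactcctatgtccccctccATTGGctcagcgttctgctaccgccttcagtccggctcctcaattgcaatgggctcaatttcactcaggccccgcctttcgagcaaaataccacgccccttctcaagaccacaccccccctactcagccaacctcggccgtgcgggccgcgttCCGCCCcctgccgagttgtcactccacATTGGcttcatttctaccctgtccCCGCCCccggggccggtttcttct
Sdc3 (GRCr8 chr5:148249542-148249791, plus strand): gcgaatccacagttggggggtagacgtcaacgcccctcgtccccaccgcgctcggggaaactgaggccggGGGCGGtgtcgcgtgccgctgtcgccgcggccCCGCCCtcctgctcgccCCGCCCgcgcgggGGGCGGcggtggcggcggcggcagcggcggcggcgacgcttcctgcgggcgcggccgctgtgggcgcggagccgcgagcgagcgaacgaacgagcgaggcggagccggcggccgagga
Gpc3 (GRCr8 chrX:137157599-137157848, minus strand): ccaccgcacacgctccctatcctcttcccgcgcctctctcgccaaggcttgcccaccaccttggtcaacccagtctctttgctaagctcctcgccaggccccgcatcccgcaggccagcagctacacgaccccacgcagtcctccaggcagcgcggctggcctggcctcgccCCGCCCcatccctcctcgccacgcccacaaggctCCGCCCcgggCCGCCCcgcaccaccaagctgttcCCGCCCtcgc

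Motifs were counted over the 250 bases before the start site listed for each promoter, which can lie inside the annotated gene. For Gpc4 only the 165 printed bases of this window lay outside the annotated gene, and for Gpc5 none did. In this window a GC box was found in all 7 of these promoters, against 32.4% of the 27457 promoters in the table. A CCAAT box stood in 2 of the 7, Gpc2 and Sdc1, against 34.3% of all promoters, and the TATA box TATAAA in none, against 13.1%. The share of G and C in this window was 80.0% for Sdc3, 71.6% for both Gpc4 and Gpc3, and 60.8% for Gpc2, against a median of 52.0% over all promoters. The Sdc3 window held 48 CpG dinucleotides and the Gpc4 window 21, against a median of 6. Genes that were higher and genes that were lower in the PHF6 shRNA arrays thus shared the GC box. These matches describe letters in the window and show no binding.

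Gpc4 had the largest difference of the 8 genes. This glypican is known from rodent cultures as a protein that astrocytes release and that promotes excitatory synapse formation, and it is also made by neural precursors. Its probe set read 68.8 and 59.0 intensity units in the PHF6 shRNA arrays, against 44.8 and 45.3 in the control shRNA arrays. The control pair was nearly equal, and both PHF6 shRNA arrays lay above it. On the log2 scale the means were 5.99 ± 0.16 in PHF6 shRNA arrays and 5.49 ± 0.01 in control arrays (SD, n = 2 each). The difference was 0.50 log2 units with a limma standard error of 0.10 and a 95% interval from 0.24 to 0.76, or 1.42-fold, and the ± of every later difference is this standard error. It did not pass the test over all genes (limma adjusted p = 0.24, unadjusted 0.0038). Of all genes, 2.31% differed by at least as much. The control arrays stood close to their background levels of 41.1 and 32.5 units, where RMA compresses differences, so the fold may be understated. It may also be overstated, since Gpc4 is the largest of 8 differences in a family chosen with earlier results known. With 1 array left out at a time, the difference lay between 0.39 and 0.61 log2 units.

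Gpc2, or cerebroglycan, is known from rat brain as a glypican of newly formed neurons during migration and axon growth. It was lower in both PHF6 shRNA arrays, at 113 and 126 intensity units against 150.2 and 150.5 in the control shRNA arrays. The difference was -0.33 ± 0.09 log2 units with a 95% interval from -0.56 to -0.10, or 1.26-fold lower, and did not pass over all genes (limma adjusted p = 0.32, unadjusted 0.013). Gpc2 and Gpc4 therefore lay on opposite sides of their controls, with control pairs that differed by 0.0035 and 0.02 log2 units.

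Gpc3 and Gpc5 form a separate branch of the glypicans. Gpc3, known as an inhibitor of Hedgehog signalling whose human gene is mutated in an overgrowth syndrome, was near background. It read 40.4 and 36.2 intensity units in PHF6 shRNA arrays and 34.3 and 35.9 in control shRNA arrays, and 1 of its control arrays lay below the background level. Its difference was 0.12 ± 0.09 log2 units (95% interval -0.12 to 0.36, limma adjusted p = 0.81), and the nearest arrays of the groups were at 36.2 and 35.9 units. Gpc5 read 136 and 223 units in PHF6 shRNA arrays and 102 and 170.4 in control shRNA arrays. Here the spread within each group exceeded the difference between the groups, which overlapped, and the difference of 0.40 ± 0.32 log2 units did not pass (95% interval -0.41 to 1.21, limma adjusted p = 0.82).

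**Figure D1:**
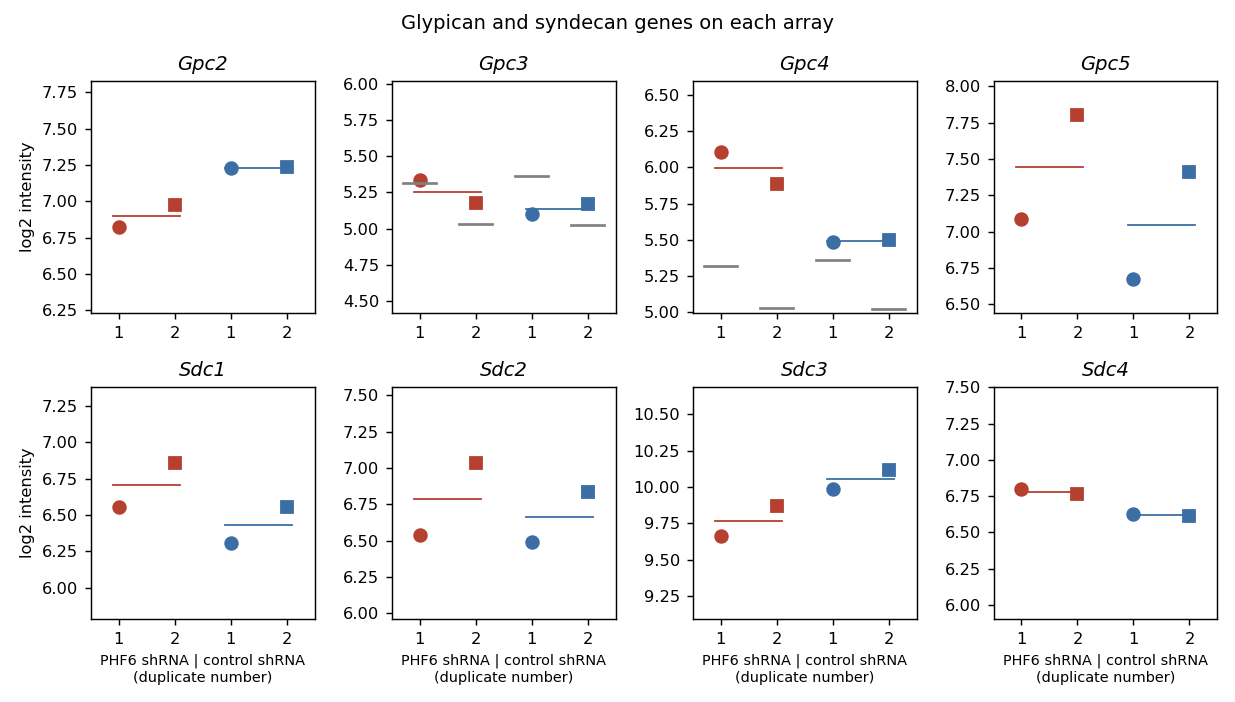
Log2 intensity of the 8 measured glypican and syndecan genes on each array, with PHF6 shRNA arrays (red) left of control shRNA arrays (blue), circles for duplicate 1 and squares for duplicate 2, coloured lines for the group means and grey lines for the background level of each array where it falls in the panel. Each panel spans the same number of log2 units around its own gene, so heights compare within a panel only; Gpc4 stands above and Gpc2 below a tight control pair, while Gpc5 differs more within than between groups.

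Among the syndecans, Sdc3 was the one with lower signal in the PHF6 shRNA arrays. Sdc3, or N-syndecan, is the main syndecan of developing axons and a receptor for the growth factor pleiotrophin. It read 810.0 and 937 intensity units in PHF6 shRNA arrays, against 1014 and 1113 in control shRNA arrays, with no overlap. The difference was -0.29 ± 0.11 log2 units (95% interval -0.56 to -0.01), or 1.22-fold lower, and did not pass over all genes (limma adjusted p = 0.44, unadjusted 0.044). The signal was far above background on every array.

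The other three syndecans had higher means in the PHF6 shRNA arrays, with intervals that included 0. Sdc1, known from epithelia and from neural progenitors of the mouse cortex, read 94.0 and 116 units in PHF6 shRNA arrays and 79.3 and 93.9 in control shRNA arrays. Its groups touched at 94.0 and 93.9 units, and the difference was 0.27 ± 0.14 log2 units (95% interval -0.08 to 0.63, limma adjusted p = 0.61). Sdc4, a syndecan of focal adhesions, had tight duplicates in both groups, at 111 and 109 units in PHF6 shRNA arrays against 98.9 and 97.7 in control shRNA arrays. Its difference of 0.16 ± 0.08 log2 units was small, and the groups did not overlap (95% interval -0.04 to 0.36, limma adjusted p = 0.60). Sdc2, which acts in dendritic spine formation in rat hippocampal neurons, read 93.1 and 131 units in PHF6 shRNA arrays and 89.8 and 114 in control shRNA arrays. These overlapped, and the difference was 0.12 ± 0.20 log2 units (95% interval -0.37 to 0.62, limma adjusted p = 0.96).

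**Figure D2:**
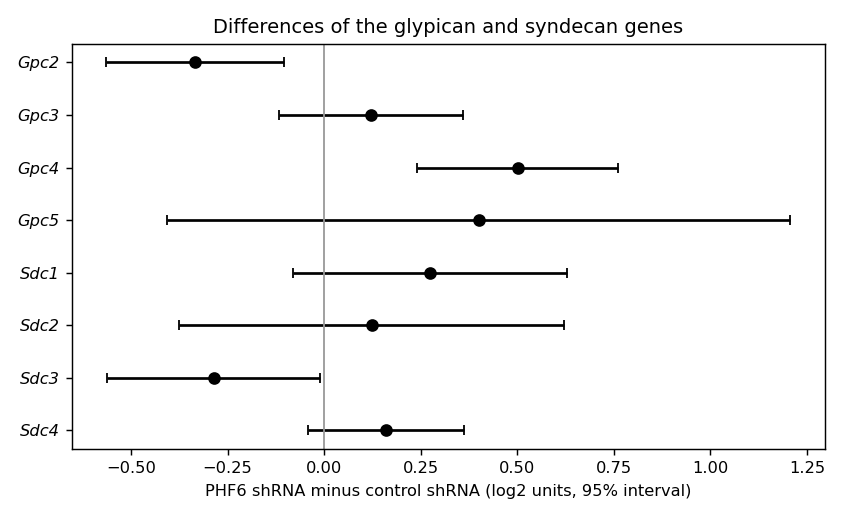
Log2 difference of each gene (PHF6 shRNA minus control shRNA) with limma's 95% interval from 2 arrays per group. The intervals of Gpc4 (0.24 to 0.76), Gpc2 (-0.56 to -0.10) and Sdc3 (-0.56 to -0.01) leave out 0 and those of the other 5 genes include it; none passed the adjusted threshold.

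Over the family, 6 of the 8 genes had higher and 2 had lower means in the PHF6 shRNA arrays, and none passed the adjusted threshold, as for all genes (0.0%). The median difference was 0.14 log2 units, against -0.01 over all genes. The arrays of the groups did not overlap in 6 of the 8 genes, 4 higher and 2 lower, against 37.8% of all genes, 16.0% higher and 21.7% lower. Among the 4 higher, Sdc1 and Gpc3 were barely apart. Their nearest arrays read 94.0 against 93.9 units for Sdc1 and 36.2 against 35.9 for Gpc3. An unadjusted p under 0.05 was found for 3 of the 8, 1 higher and 2 lower, against 10.8% of all genes, 3.28% higher and 7.52% lower. That split turned under cyclic loess, with 3 higher (Gpc4, Sdc1 and Sdc4) and 1 lower (Gpc2), and was 2 and 2 under a further quantile normalization; Sdc3 had an unadjusted limma p of 0.076 under cyclic loess. No member met the stricter description of no overlap and at least 1.5-fold, which 1.4% of all genes met. All 8 members were above background on at least 2 arrays, against 10927 of all 17245 genes. The shares over all genes thus include more dim genes.

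For Gpc5 and Sdc2 the duplicates of each group differed more than the group means did, and for Sdc1 by about as much. Gpc5 was higher in duplicate 2 than in duplicate 1 by 0.72 log2 units in the PHF6 shRNA arrays and by 0.74 in the control shRNA arrays. Sdc2 was higher in duplicate 2 by 0.49 and 0.35, and Sdc1 by 0.30 and 0.24, in PHF6 shRNA and control shRNA arrays. Sdc3 was also higher in duplicate 2, by 0.21 and 0.13, which was less than its group difference of -0.29 in size. When arrays of the same number were set side by side, Gpc5 was higher with PHF6 shRNA by 0.41 in duplicate 1 and by 0.39 in duplicate 2. Gpc4 did not share this pattern, since its duplicate 2 was lower by 0.22 in the PHF6 shRNA arrays and higher by 0.02 in the control arrays.

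Markers of astrocytes and radial glia and of dividing cells followed the duplicates too. The summed intensity of 11 measured glial markers was 2725 and 5419 in PHF6 shRNA duplicates 1 and 2, against 2313 and 4415 in control shRNA duplicates 1 and 2. A large part of each sum was Vim alone, at 1295 and 2726 against 1252 and 2102. All 11 markers had a higher mean with PHF6 shRNA (10 under cyclic loess), against 8222 of all 17245 genes. The median difference was 0.16 log2 units. Between arrays of the same number, Gfap and Gja1 were lower in duplicate 2 (-0.19 and -0.03). Aqp4 and Nes were lower in duplicate 1 (-0.03 and -0.04), and the other markers were higher in both. Of the 11, 2 had an unadjusted p under 0.05, against 10.8% of all genes. These 2, the glutamate transporter gene Slc1a2 and the aldolase gene Aldoc, differed by 0.98 ± 0.20 and 0.61 ± 0.18 between groups without overlap, more than their duplicates differed in either group. The 5 markers of dividing cells summed to 201 and 533 in the PHF6 shRNA arrays and 288 and 498 in the control shRNA arrays. All 5 had a lower mean with PHF6 shRNA, none at an unadjusted limma p under 0.05. Between arrays of the same number, the direction was not shared. With PHF6 shRNA, Mki67, Top2a, Cdk1 and Ccnb1 were lower in duplicate 1 (-0.83, -0.30, -0.39 and -0.25). They were higher in duplicate 2 (0.20, 0.02, 0.14 and 0.02), while Bub1 was lower in both (-0.67 and -0.13). Of the 9 neuronal markers, 8 had a lower mean with PHF6 shRNA (6 under cyclic loess), against 52.3% of all genes. Their median was -0.20 log2 units, and the 9 summed to 10939 and 11203 against 12299 and 12332. At an unadjusted limma p under 0.05 stood 2 of the 9, Tubb3 (-0.22) and Nefl (-0.65), both lower, against 10.8% of all genes. In bulk RNA, fewer cells of a type and less RNA per cell cannot be told apart. The part of cell composition in the glypican and syndecan values was not tested. On all 4 arrays, 9 of 9 neuronal, 7 of 11 astrocyte and radial glia and 2 of 5 dividing cell markers were above background. On at least 2 arrays, 9 of 9, 11 of 11 and 5 of 5 of these were above it. So were 2 of 7 microglial, 3 of 8 endothelial, mural or fibroblast and 5 of 6 oligodendrocyte lineage markers. The medians of these last 3 lists were -0.02, 0.06 and -0.0013 log2 units, with no gene at an unadjusted p under 0.05.

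**Figure D3:**
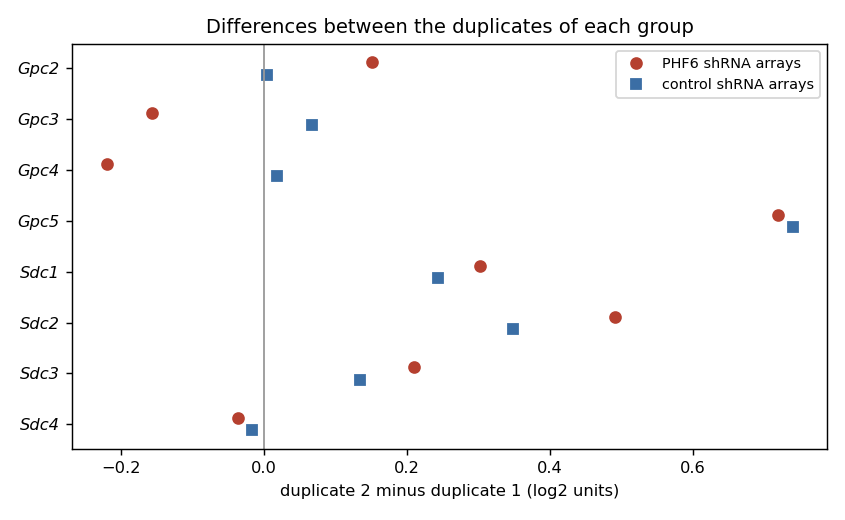
Duplicate 2 minus duplicate 1 in log2 units for each gene, with red circles for the PHF6 shRNA arrays and blue squares for the control shRNA arrays. Gpc5, Sdc2, Sdc1, Sdc3 and Gpc2 lie to the right in both groups, Gpc2 barely so in the control shRNA arrays (0.0035). Gpc4 and Gpc3 lie on opposite sides of 0 in the 2 groups.

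The enzymes that build heparan sulfate complete the proteoglycan, and 25 of the 27 listed genes of chain synthesis and sulfation were measured. Of these 25, 15 had lower and 10 had higher means in the PHF6 shRNA arrays, with a median of -0.05 log2 units against -0.01 over all genes, and none passed the adjusted threshold. At an unadjusted p under 0.05 stood 9 of the 25, all of them lower, against 7.52% of all genes lower at that level. Under cyclic loess 13 of the 25 were lower and 5 stood at that level, again all lower, while the lower share of all genes at that level was 48.2%, against 69.7% with the values as deposited.

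The first step joins the chain to the core protein through a linker that chondroitin sulfate shares, and 6 of 6 genes were measured, 4 lower and 2 higher. Fam20b, the kinase that phosphorylates the linker's xylose, had the largest difference of the heparan sulfate genes examined. It read 51.5 and 65.7 intensity units in PHF6 shRNA arrays, against 98.2 and 112 in control shRNA arrays. The difference was -0.85 ± 0.14 log2 units, or 1.80-fold lower, with no overlap, and did not pass (limma adjusted p = 0.23, unadjusted 0.0015). B3gat3, which adds the linker's glucuronic acid, differed by -0.29 ± 0.08 and the galactosyltransferase gene B4galt7 by -0.20 ± 0.09. The chain is then polymerised by the Ext proteins, where 3 of 5 genes were lower. Ext2 differed by -0.30 ± 0.09 and Ext1, its partner in the polymerase, by -0.11 ± 0.08. Extl2, a glycosyltransferase that acts on the linker and limits chain growth, differed by -0.27 ± 0.08.

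Sulfation genes were split by the position they modify. The 2 measured genes of 6-O-sulfation, which many growth factors need for binding, were both lower without overlap. Of all genes, 21.7% were lower without overlap. Hs6st1 read 192 and 179.9 intensity units in PHF6 shRNA arrays against 261 and 303 in control shRNA arrays, a difference of -0.59 ± 0.11 log2 units (limma adjusted p = 0.24), and Hs6st2 differed by -0.25 ± 0.08. Of 6 measured genes of 3-O-sulfation, a rare late modification, 4 were lower and 2 higher (3 and 3 under cyclic loess). Hs3st1 read 562 and 543 units in PHF6 shRNA arrays against 759 and 804 in control shRNA arrays, a difference of -0.50 ± 0.08 (limma adjusted p = 0.23). Hs3st5 read 203 and 183 units against 259 and 305 in control shRNA arrays, a difference of -0.55 ± 0.12 (limma adjusted p = 0.24). Both had no overlap between groups, whereas Hs3st3b1 differed by -0.13 ± 0.16. Of 6 genes of N-sulfation, epimerisation and 2-O-sulfation, 4 were higher and 2 lower. Among them the 2-O-sulfotransferase gene Hs2st1 differed by -0.30 ± 0.10, the N-deacetylase and N-sulfotransferase gene Ndst2 by 0.17 ± 0.13 and the epimerase gene Glce by 0.12 ± 0.11.

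Genes that trim, release or degrade heparan sulfate proteoglycans showed smaller differences, and none of them reached an unadjusted p under 0.05. Of 3 measured genes of extracellular editing, the sulfatase genes Sulf1 and Sulf2 differed by 0.06 ± 0.10 and -0.10 ± 0.24, and the heparanase gene Hpse, which was above background on no array, by -0.02 ± 0.12. The 4 measured genes of lysosomal degradation were all lower, between -0.20 (Ids, the iduronate sulfatase) and -0.02, with Hgsnat at -0.10 ± 0.11 and Gusb, above background on no array, at -0.10 ± 0.09. Of 7 genes whose products cut core proteins or release them, 4 were higher and 3 lower. The proprotein convertase genes Furin, Pcsk7 and Pcsk5 differed by 0.07 ± 0.08, -0.19 ± 0.09 and -0.19 ± 0.13. The secreted core proteins Agrn (agrin), Hspg2 (perlecan) and Col18a1 (collagen XVIII) differed by -0.07 ± 0.12, 0.09 ± 0.09 and 0.04 ± 0.11.

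Binding partners of the core proteins held the largest positive differences of the 12 lists. Of 10 genes of syndecan tail partners and ligands, 6 were higher and 4 lower, and 3 had an unadjusted p under 0.05, against 10.8% of all genes. Prkca, the protein kinase C form that the Sdc4 tail activates, read 325 and 313 intensity units in PHF6 shRNA arrays against 168 and 189 in control shRNA arrays. The difference was 0.84 ± 0.10 log2 units, or 1.79-fold, with no overlap (limma adjusted p = 0.23, unadjusted 0.00022). Sdcbp, or syntenin, the adaptor that binds syndecan tails and acts in exosome formation, read 591 and 563 units in PHF6 shRNA arrays against 279.8 and 398 in control shRNA arrays, a difference of 0.79 ± 0.17 (limma adjusted p = 0.25). Cask, a scaffold kinase that binds the Sdc2 tail, went the other way at -0.33 ± 0.08. The Sdc3 ligand genes Ptn and Mdk, named after their values were seen, differed by 0.21 ± 0.19 and 0.56 ± 0.39, and both varied between duplicates.

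Among 7 neuronal partners of glypicans, 5 were higher and 2 lower. Gpr158, an orphan receptor that binds Gpc4 at mouse hippocampal synapses, read 141 and 124 intensity units in PHF6 shRNA arrays against 86.6 and 107 in control shRNA arrays. It was higher without overlap, like Gpc4, as were 16.0% of all genes, with a difference of 0.46 ± 0.13 log2 units (limma adjusted p = 0.33). Between arrays of the same number, Gpr158 differed by 0.70 in duplicate 1 and by 0.22 in duplicate 2. Of the 7 partners, Gpr158 was the only one without overlap. The receptor phosphatase gene Ptprd and the pentraxin gene Nptx1, both tied to Gpc4 action at mouse synapses, overlapped between groups and differed by 0.19 ± 0.16 and 0.17 ± 0.18. Of 13 measured ligands and receptors that use heparan sulfate, 9 were higher and 4 lower (12 and 1 under cyclic loess), and 4 had an unadjusted p under 0.05, 3 higher and 1 lower, against 3.28% and 7.52% of all genes. The guidance ligand genes Slit1 and Slit3 lay on opposite sides at -0.26 ± 0.08 and 0.28 ± 0.10, and the Slit receptor gene Robo1 differed by 0.28 ± 0.10. Slit2, named after its values were seen, differed by 0.64 ± 0.24, but by 0.27 when PHF6 shRNA duplicate 1 was left out and by 1.02 when PHF6 shRNA duplicate 2 was. None of the 72 measured genes in the 12 lists passed the adjusted threshold, and 17 (23.6%) had an unadjusted p under 0.05, against 10.8% of all genes. These shares are not like for like. Above background on at least 2 arrays were 65 of the 72, against 10927 of all 17245 genes.

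**Figure D4:**
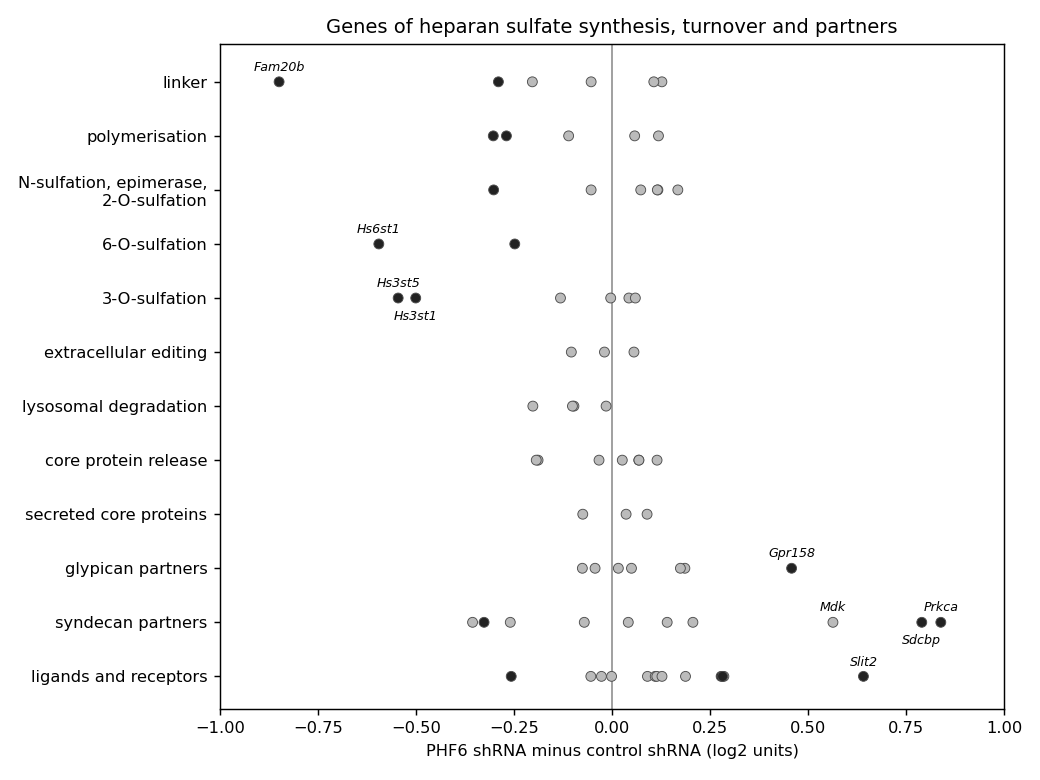
Difference of each measured gene in the 12 heparan sulfate lists (PHF6 shRNA minus control shRNA on the log2 scale), with dark points for an unadjusted limma p under 0.05 and names for genes beyond 0.45 in size. In the upper 5 lists, those of chain synthesis and sulfation, the 9 dark points all lie left of 0, led by Fam20b at -0.85, and the rightmost points are Prkca (0.84) and Sdcbp (0.79) among the syndecan partners.

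Gpc4 and Gpc3 lie close to Phf6 on the rat X chromosome, so their values were set beside those of the genes around them. Among named protein-coding genes in the GRCr8 annotation, Gpc3 is the second and Gpc4 the fourth from Phf6 on one side, and Hs6st2 follows at position 7 on that side. Of the 10 nearest such genes, 5 on either side, 7 were measured. Hprt1, the purine salvage enzyme and the second on the other side, read 59.0 and 56.6 intensity units in PHF6 shRNA arrays against 45.1 and 53.1 in control shRNA arrays. The difference of its brighter probe set was 0.24 ± 0.11 log2 units (limma adjusted p = 0.54), and that of its other probe set was 0.33 ± 0.19. Magea14, Plac1, Pabir2 and Pabir3 were above background on no array and differed by 0.09, -0.02, 0.0029 and 0.0042. Of the 8 genes in this stretch, counting Phf6, only Gpc4 had a 95% interval that left out 0. Hs6st2, outside the nearest 10, lay on the lower side, and its interval (-0.46 to -0.04) also left out 0.

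**Figure D5:**
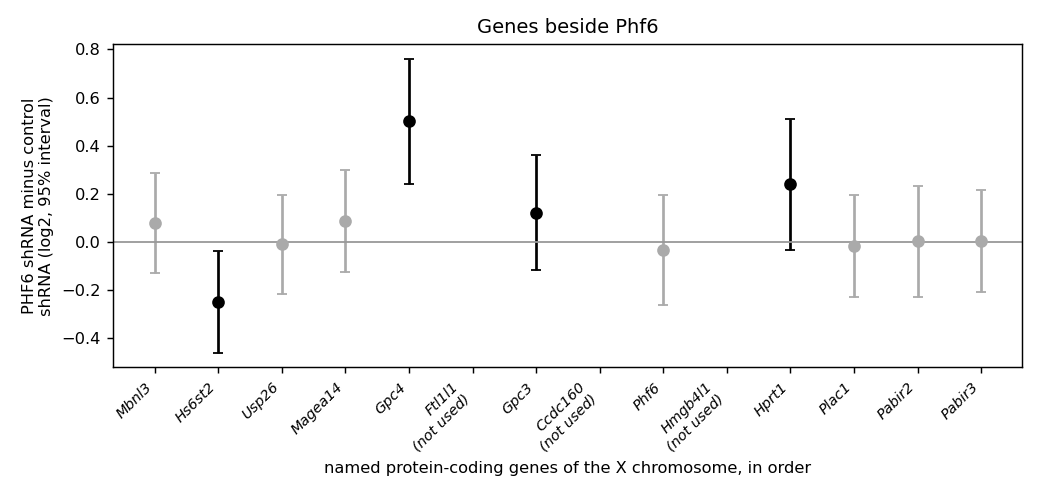
Difference of the named protein-coding genes around Phf6 on the X chromosome, in map order (PHF6 shRNA minus control shRNA on the log2 scale) with limma's 95% interval; black points were above background on at least 3 of the 4 arrays and grey points on fewer. Gpc4 stands highest at 0.50, Hprt1 follows at 0.24 and Gpc3 at 0.12, while Hs6st2 lies at -0.25.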

How the data were processed

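The authors deposited 1-colour Affymetrix intensities made with RMA (background correction, quantile normalization, probe set summary), per the submitters' processing notes; its version is not given in the sources used here. The deposited intensity values lay on a linear scale, 8.57 at the lowest and 6121 at the highest, and were turned into log2 values. Of 29214 rows, 18644 carried 1 gene symbol, 962 several and 9608 none; 18460 symbols were updated by gene identifier. The brightest probe set per gene was kept. Groups came from the sample titles. The comparison used limma 3.58.1 under R 4.3.3 (lmFit, eBayes, two-sided, no covariate, no filter; prior of 3.46 degrees of freedom), with Benjamini-Hochberg adjustment over 17245 genes. On simulated data with these means and 17245 genes, the fit recovered 83.3% of 2-fold and 98.8% of 4-fold changes. False calls averaged 7.2 and 10 genes. The simulated arrays varied independently, and the changed genes were above background on all 4 arrays. The real arrays shared deviations by duplicate number, so these rates do not carry over to them. The largest real difference was 2.09 log2 units and did not pass. The named genes were all members, Phf6 and its neighbours, and up to 3 genes per list with the smallest p. Members, lists and markers were chosen with earlier results of these data known. Alternatives were a replicate block, leaving out each array, 3 scalings, 2 filters on dim genes, the mean of probe sets, all rows, other priors and an adjusted p of 0.10. The number of arrays limits the precision.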

Additional observations from a re-analysis of the deposited data

How the results depend on the processing

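No label states that the duplicate numbers pair the arrays. The descriptions put exp before the same numbers, which may mean a shared experiment, and deviations of same-numbered arrays correlated at 0.571 across 17245 genes, which are not independent replicates. With the replicate block, 909 genes (5.27%) passed an adjusted p of 0.05 in limma, in place of 0. Among them were 2 of the 8 glypican and syndecan genes, Gpc4 (limma adjusted p = 0.022) and Gpc5 (0.029), and 7 heparan sulfate genes, Fam20b, Hs6st1, Hs3st1 and Hs3st5 toward lower and Prkca, Sdcbp and Mdk toward higher signal. Leaving out 1 array gave 0 to 90 genes in all, 0 of the 8 members each time, and 0 to 3 heparan sulfate genes; the lone array of a group is then assumed to vary like the others. The 90 came without PHF6 shRNA duplicate 2, among them Fam20b, Prkca and Slit2, and 2 came without PHF6 shRNA duplicate 1. Sdc2 changed sign to -0.12 without PHF6 shRNA duplicate 2 and to -0.05 without control duplicate 1, within a range of -0.12 to 0.37 over the arrays left out. The duplicates of Sdc2 differed by 0.49 in PHF6 shRNA and 0.35 in control shRNA arrays, against a group difference of 0.12. Leaving out 1 array can therefore turn its sign. Why the duplicates differed was not tested. The other 7 members kept their sign under all 14 alternatives, with Gpc4 between 0.39 and 0.61, Gpc2 between -0.41 and -0.26, Sdc3 between -0.39 and -0.18, Gpc5 between 0.03 and 0.77, Sdc1 between 0.12 and 0.43, Gpc3 between 0.04 and 0.20 and Sdc4 between 0.14 and 0.22 log2 units. Under the scalings, filters, probe set, prior and threshold alternatives no gene passed. No list median changed sign under the 3 scalings. RMA values near background, as for Gpc3, limit what can be seen there.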
